A study of Mus musculus with 4 samples.

Results

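The YAP pathway was described here by 9 genes, taken by symbol from the deposited expression matrix of 24444 genes: Yap1, Wwtr1, Tead1, Lats2, Ctgf, Cyr61, Ankrd1, Amotl2 and Axl. All 9 were found, Ctgf and Cyr61 under these older names of Ccn2 and Ccn1, and all 9 passed the filter on low values. Poly(A) RNA had been sequenced in 4 libraries from oesophageal cells in culture, of the mouse strain C57BL/6J. The 2 Nrf2-HET libraries came from cells with the Nfe2l2-E79Q cassette, made by CRISPR/Cas9 microinjection, and the 2 Nrf2-WT libraries from cells with no cassette and no treatment. Nfe2l2 encodes NRF2, a transcription factor of antioxidant genes, E79Q is a tumour-derived substitution in it, and the series title calls the mouse conditional. How the allele was switched on, the animals behind each culture and their age were not given in the sources used here. Every column name, of both genotypes, holds the word SV40, which the labels do not explain. The design text of the series describes a human breast cancer line instead. That text goes against the series title and the labels of every sample, and was set aside.

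The Hippo pathway is a kinase cascade that restrains growth. Its kinases MST1 and MST2 (Stk4, Stk3) activate LATS1 and LATS2, which phosphorylate the coactivators YAP (Yap1) and TAZ (Wwtr1) and so keep them out of the nucleus. Nuclear YAP and TAZ bind TEAD factors on DNA and switch on genes such as Ctgf, Cyr61 and Ankrd1, and in stratified epithelium nuclear YAP is a feature of basal, dividing cells. Phosphorylation and location of YAP are not seen in RNA, so the transcripts below describe the machinery and its target genes, not YAP activity itself.

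TEAD factors bind the bases GGAATG, or CATTCC on the other strand. RefSeq promoter windows (GRCm38.p6, from 250 bases before to 50 bases after an annotated start) were at hand for 7 of the 9 members, with no entry for Tead1 or Ctgf. The motif was present in at least 1 window of all 7, and in 8 of their 9 windows, against 14.7% of all 32851 windows and 16.6% of all 27025 genes with a window. The windows of Wwtr1 overlap and hold the same match. The members were chosen as genes of the YAP pathway and its targets, so this comparison is not a test. The 250 bases before the start are shown for the 4 members that were lower in Nrf2-HET cells, 5' to 3' on the gene's strand, with the motif in capitals. They lie at chr3:145649986-145650235 (minus strand) for Cyr61, chr19:36119845-36120094 (minus strand) for Ankrd1, chr9:102717554-102717803 (plus strand) for Amotl2 and chr7:25788734-25788983 (minus strand) for Axl.
Cyr61: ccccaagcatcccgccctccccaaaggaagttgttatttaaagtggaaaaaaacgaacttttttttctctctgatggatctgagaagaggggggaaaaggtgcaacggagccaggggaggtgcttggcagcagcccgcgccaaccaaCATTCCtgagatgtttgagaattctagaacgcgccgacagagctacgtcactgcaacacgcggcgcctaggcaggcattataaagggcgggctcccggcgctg
Ankrd1: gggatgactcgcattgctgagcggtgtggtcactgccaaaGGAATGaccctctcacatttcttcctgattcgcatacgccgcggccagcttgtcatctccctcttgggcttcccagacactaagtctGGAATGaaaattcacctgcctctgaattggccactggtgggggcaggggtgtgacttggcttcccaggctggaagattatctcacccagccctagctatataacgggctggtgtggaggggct
Amotl2: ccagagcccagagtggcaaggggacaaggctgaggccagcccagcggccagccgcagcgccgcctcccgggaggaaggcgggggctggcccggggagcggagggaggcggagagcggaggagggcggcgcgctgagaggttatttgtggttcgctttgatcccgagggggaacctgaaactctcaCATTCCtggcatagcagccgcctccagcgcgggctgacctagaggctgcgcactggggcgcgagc
Axl: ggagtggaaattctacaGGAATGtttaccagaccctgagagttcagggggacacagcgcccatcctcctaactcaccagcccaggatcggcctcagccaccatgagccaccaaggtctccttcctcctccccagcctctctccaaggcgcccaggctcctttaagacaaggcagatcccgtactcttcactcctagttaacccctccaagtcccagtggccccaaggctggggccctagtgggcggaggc
The match begins 103 bases before the start in Cyr61, 65 before it in Amotl2 and 233 before it in Axl, and Ankrd1 has 2 matches, at 210 and 123 bases. The members that were not called hold it too, Yap1 at 141 bases and Wwtr1 at 136 bases before the start of its outer window, and Lats2 just after the start of 1 of its 2 windows, so its presence did not separate called from uncalled members. The core of the antioxidant response element that NRF2 binds, TGACNNNGC on either strand, was found in 2 of the 7, Cyr61 and Ankrd1, against 14.0% of genes with a window. These are matches of letters in a window and show no binding.

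The deposited values are variance-stabilised and on a log2-like scale, on which genes without reads sit at 6.98. In each gene, the Nrf2-HET and Nrf2-WT values of replicate 1 add up to the same total as those of replicate 2. The values had thus been centred by replicate number before deposit. A shift shared by both libraries of a pair leaves the difference within the pair as it was, so differences are given for each pair. In values centred this way, the groups fail to overlap exactly when both pairs differ in the same direction. Agreement of the pairs and lack of overlap are therefore the same observation. The spread within a genotype is what the centring left, and it is equal in both genotypes. All differences are Nrf2-HET minus Nrf2-WT with the moderated SE of limma over 2 pairs, and a gene is called at a Benjamini-Hochberg adjusted p under 0.05 over 10857 genes tested. Approximate normalised counts come from inverting the variance stabilisation. Estimated depth was 13.0 to 15.2 M reads in the Nrf2-HET libraries and 12.6 to 14.2 M reads in the Nrf2-WT libraries. The labels do not say that replicates came from separate cultures or animals, so the p-values measure only the spread between these libraries, which may be technical. With 2 pairs, 0.5 is the smallest two-sided p of an exact test, and each call therefore rests on the spread that limma pools over genes.

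The NRF2 target Nqo1, a quinone reductase, was 10.88 and 10.87 in Nrf2-HET libraries against 8.64 and 8.65 in Nrf2-WT libraries, in the direction of the labels. Nfe2l2 itself does not check them, since E79Q is a substitution. Xist, the RNA that silences an X chromosome, also ran with genotype. It lay at 7.30 and 7.12 in Nrf2-HET libraries and at 11.99 and 12.17 in Nrf2-WT libraries, while 4 Y-linked genes were present in all 4 libraries. Of these, Ddx3y rose by 0.54 ± 0.07 (limma adjusted p = 1.14e-05), at 10.05 and 10.19 in Nrf2-HET libraries against 9.65 and 9.51 in Nrf2-WT libraries, and Uty rose by 0.31 ± 0.07 (limma adjusted p = 0.00158). Kdm5d and Eif2s3y had differences of 0.13 ± 0.06 and 0.06 ± 0.06 and were not called. Xist and the Y-linked genes were chosen after their values were seen. Sex makeup of the cultures and genotype cannot be told apart.

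Among the 9 members, Cyr61, Ankrd1, Amotl2 and Axl fell in Nrf2-HET cells and Tead1 rose. Yap1, Wwtr1, Lats2 and Ctgf were not called. On the deposited scale Amotl2 fell most, to a normalised count 28.4% below that of Nrf2-WT cells. Ankrd1, a low gene on which that scale shows less, was 32.3% below by count, Cyr61 lay 22.5% below, and Axl had 0.900 times the count of Nrf2-WT cells. Called members were thus 5 of 9, where 40.4% of all genes tested were called, 4 of 9 lower against 18.9% and 1 of 9 higher against 21.5%. Both Nrf2-HET libraries lay below both Nrf2-WT libraries in 6 of the 9, as in 38.1% of all genes tested. The 6 include Lats2 and Yap1, which were not called, Yap1 with pair differences of only -0.02 and -0.00044. Both Nrf2-HET libraries lay above them in 2 of the 9, as in 41.1% of all genes tested. Groups thus did not overlap in 8 of 9 members and in 79.2% of all genes. The median difference of the 9 was -0.10, against 0.01 over all genes tested.

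**Figure D1:**
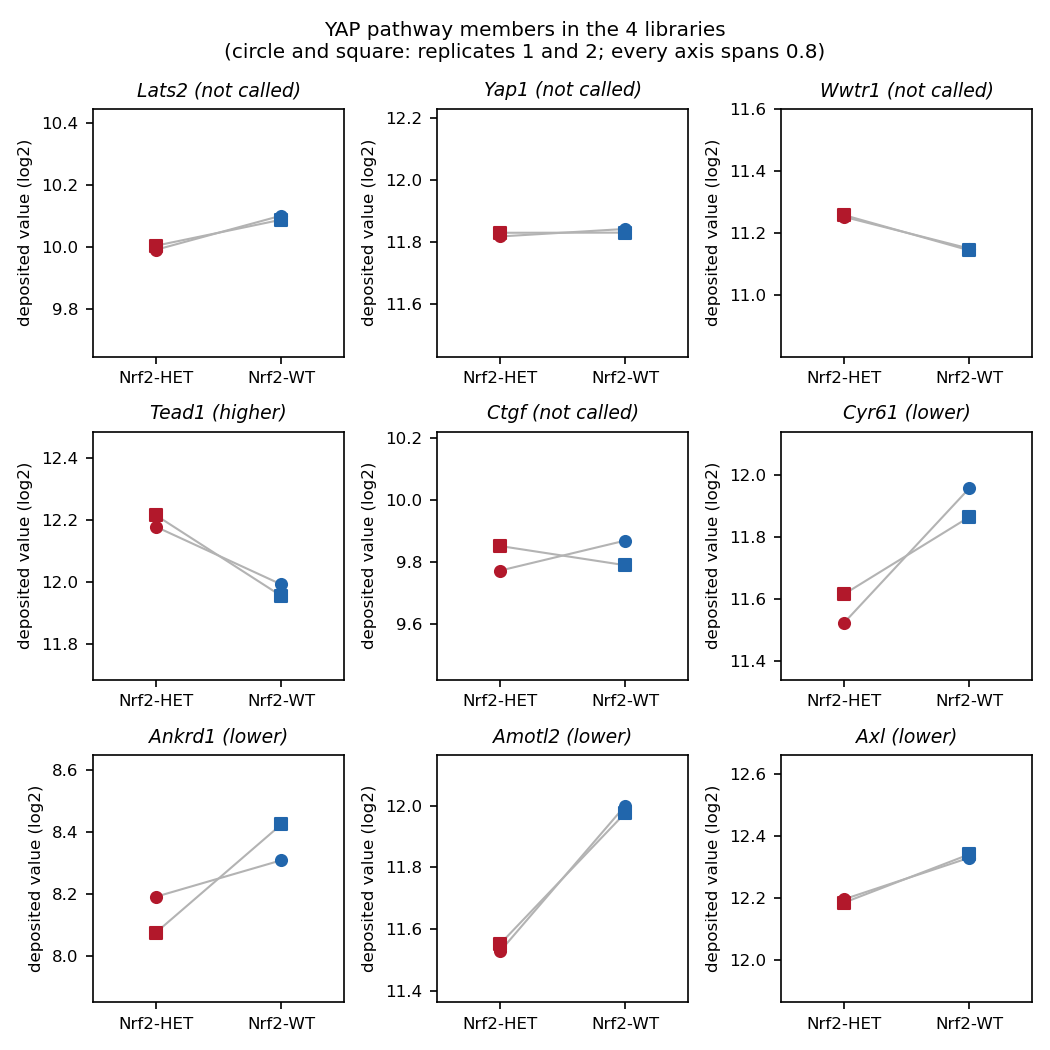
Deposited log2 value of each of the 9 members (vertical axis) in Nrf2-HET and Nrf2-WT libraries, with grey lines joining the libraries of a replicate number. Amotl2 separates the genotypes by 0.45, Yap1 by 0.01, and the lines of Ctgf cross.

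Yap1, the coactivator, had values of 11.82 and 11.83 in Nrf2-HET libraries and 11.84 and 11.83 in Nrf2-WT libraries. The 4 libraries were nearly level. Its difference was -0.02 in pair 1 and -0.00044 in pair 2, and -0.01 ± 0.05 in all (limma adjusted p = 0.857). Of all genes tested, only 5.57% had a smaller absolute difference. Wwtr1, which encodes TAZ, a close relative of YAP with the same partners, was 11.25 and 11.26 in Nrf2-HET libraries and 11.15 and 11.14 in Nrf2-WT libraries. Both Nrf2-HET libraries were above both Nrf2-WT libraries, by 0.10 in pair 1 and 0.11 in pair 2. The difference of 0.11 ± 0.05 missed the threshold (limma adjusted p = 0.0862). Among the alternatives it was called in the fit of all 4 libraries without the replicate block (limma adjusted p = 0.00628). Some of the fits that leave out a library called it too. The adjusted p lay between 0.00628 and 0.187 over the 12 alternatives. All the fits that called it were without the block on values centred by pair. Data simulated with no changed gene were centred the same way. There, the fit of all 4 libraries gave limma p under 0.05 to 23.7% of genes without the block and 5.01% with it. After adjustment it called a mean of 0 genes without the block and 0.2 with it. With 200 genes changed, a mean of 29.7 of 160.65 calls were false without the block and 12.6 of 179.1 with it. Fewer genes were changed there than the 4388 called in the real values.

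Tead1 encodes a DNA-binding partner of YAP and TAZ. It stood at 12.18 and 12.21 in Nrf2-HET libraries, against 11.99 and 11.95 in Nrf2-WT libraries, higher in both pairs. It rose by 0.22 ± 0.05 (limma adjusted p = 0.00123), a normalised count 1.18-fold that of Nrf2-WT cells. The other TEAD genes did not follow it uniformly. Tead4 had 9.43 and 9.46 in Nrf2-HET libraries and 9.13 and 9.11 in Nrf2-WT libraries, and rose by 0.33 ± 0.06 (limma adjusted p = 0.000642). Tead2 had 9.85 and 9.78 in Nrf2-HET libraries and 10.28 and 10.36 in Nrf2-WT libraries, and fell by 0.51 ± 0.06 (limma adjusted p = 5.43e-06). Tead3, at 9.56 and 9.43 in Nrf2-HET libraries and 9.78 and 9.91 in Nrf2-WT libraries, fell by 0.35 ± 0.07 (limma adjusted p = 0.000730). In all 4 TEAD genes the genotypes did not overlap, with 2 higher and 2 lower, as they did not in 79.2% of all genes tested. Per kb of the longest coding transcript, the 4 TEAD genes summed to 982 and 961 approximate normalised counts in Nrf2-HET libraries and 1021 and 1058 in Nrf2-WT libraries. Tead1 made up 44.8% and 47.0% of that sum in Nrf2-HET libraries and 37.6% and 35.3% in Nrf2-WT libraries. Tead2 made up 20.7% and 19.7% in Nrf2-HET libraries and 29.0% and 29.9% in Nrf2-WT libraries. Both Nrf2-HET libraries thus had a higher share of Tead1 and a lower share of Tead2 than both Nrf2-WT libraries. These shares depend on the transcript length chosen and were not tested.

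Of the VGLL proteins, cofactors that compete with YAP for TEAD, Vgll3 and Vgll4 were tested and not called, with differences of 0.01 ± 0.06 and 0.05 ± 0.06. Vgll2 was at the floor in all 4 libraries and Vgll1 was below the filter. The list of coactivators, TEAD and VGLL genes thus had 2 higher and 2 lower of 8 tested, all 4 of them TEAD genes, with a median difference of 0.03. That is 25.0% each way, against 21.5% higher and 18.9% lower among all genes tested.

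Lats2, the kinase that inhibits YAP and is itself a YAP target, was at 9.99 and 10.005 in Nrf2-HET libraries and at 10.10 and 10.09 in Nrf2-WT libraries. The Nrf2-HET libraries were lower in both pairs, with differences of -0.11 and -0.08. The difference of -0.10 ± 0.06 was not called (limma adjusted p = 0.178), though it was called in 1 of 12 alternatives, the same fit without the replicate block (adjusted p = 0.0127; range over the 12, 0.0127 to 0.226). Its partner kinase Lats1 was likewise not called (0.07 ± 0.05). Of the 7 core kinases and adaptors only Stk4, which encodes MST1, passed: it stood at 10.88 and 10.90 in Nrf2-HET libraries and 10.70 and 10.67 in Nrf2-WT libraries, and rose by 0.21 ± 0.05 (limma adjusted p = 0.00431). Stk3 (MST2) had a difference of -0.04 ± 0.07, with -0.19 in pair 1 and 0.11 in pair 2. The scaffold Sav1 and the LATS cofactors Mob1a and Mob1b had differences of 0.02, 0.13 and -0.05 and were not called. The cascade's median difference was 0.02. Of its 7 genes, 14.3% were called higher and 0% lower, against 21.5% and 18.9% of all genes tested.

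Amotl2 encodes an angiomotin-like protein that holds YAP at cell junctions and is also a target of YAP. It had 11.53 and 11.55 in Nrf2-HET libraries against 11.9999 and 11.98 in Nrf2-WT libraries. Values within a genotype lay close together, but centring by replicate number had removed any shift shared by a pair. Amotl2 fell by 0.45 ± 0.05 (limma adjusted p = 1.76e-06), with -0.47 in pair 1 and -0.42 in pair 2. It had about 3005 and 2575 estimated reads in the Nrf2-HET libraries against 3968 and 3537 in the Nrf2-WT libraries. Of genes tested, 93.8% had a smaller absolute difference, the highest share among the 9 members. The other angiomotins split. Amot, an X-linked gene, was at 9.13 and 9.13 in Nrf2-HET libraries and 9.60 and 9.60 in Nrf2-WT libraries, and fell by 0.47 ± 0.06 (limma adjusted p = 1.96e-05), while Xist differed in the same libraries as given above. Amotl1 was at 12.37 and 12.42 in Nrf2-HET libraries and 12.18 and 12.14 in Nrf2-WT libraries, and rose by 0.24 ± 0.05 (limma adjusted p = 0.000839). The part of X dosage in the fall of Amot was not tested.

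Of the 21 tested upstream regulators of LATS and YAP, 8 fell and 3 rose, with a median of -0.02. That is 38.1% lower and 14.3% higher, against 18.9% and 21.5% of all genes tested. Besides the angiomotins, the kinase gene Taok2, whose product acts on MST kinases, fell by 0.34 ± 0.06 (limma adjusted p = 0.000629), and Llgl1, a cell polarity gene, fell by 0.28 ± 0.05 (limma adjusted p = 0.000545). Another polarity scaffold, Dlg1, rose by 0.26 ± 0.05 (limma adjusted p = 0.000669). Fat4 and Dchs1, the cadherin pair upstream of Hippo, were below the filter.

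**Figure D2:**
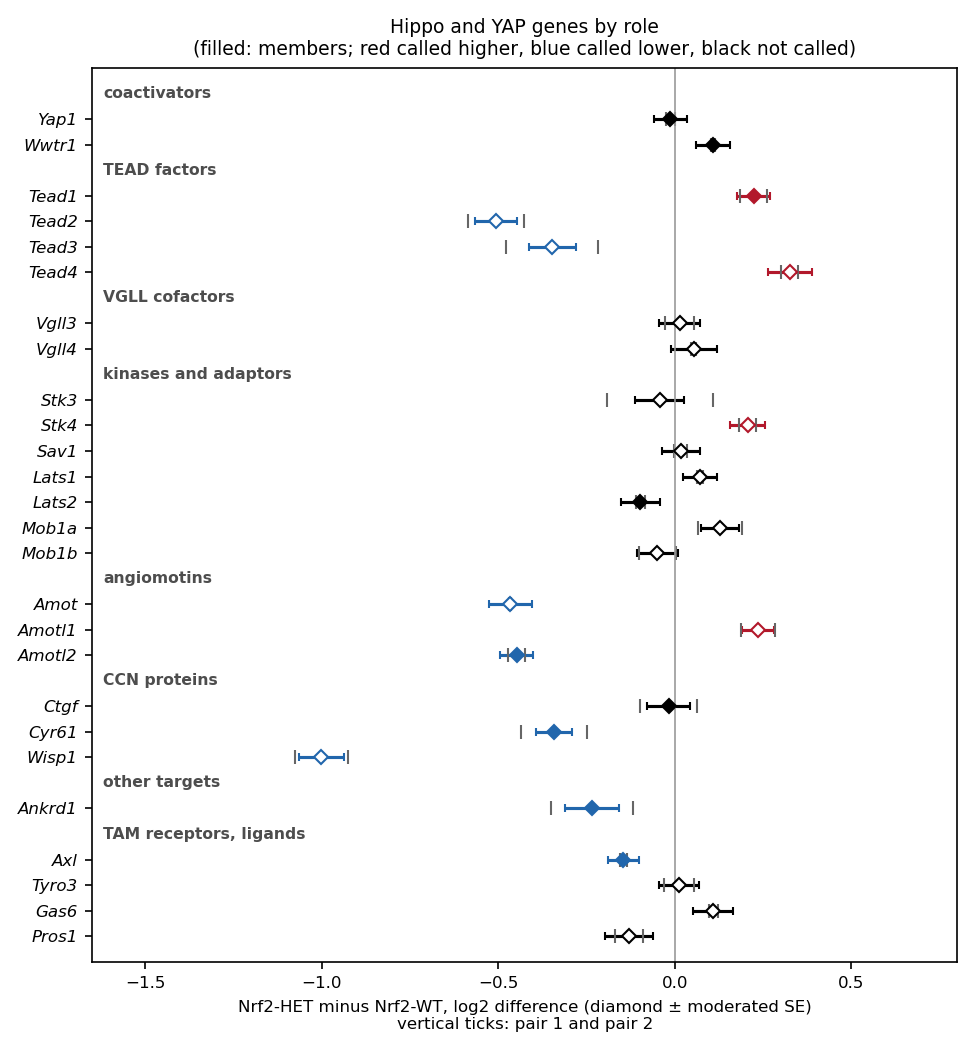
Difference of each gene (Nrf2-HET minus Nrf2-WT, log2; diamonds with the moderated SE, ticks for both pairs), grouped by role, with members filled. Tead2, Tead3, Amot, Amotl2, Cyr61, Wisp1, Ankrd1 and Axl were called lower, Tead1, Tead4, Stk4 and Amotl1 higher.

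Ctgf and Cyr61 encode CCN2 and CCN1, secreted matrix-associated proteins and standard readouts of YAP. Ctgf was 9.77 and 9.85 in Nrf2-HET libraries and 9.87 and 9.79 in Nrf2-WT libraries. The groups overlapped, and the pairs went opposite ways, by -0.10 in pair 1 and 0.06 in pair 2. The difference of -0.02 ± 0.06 was not called (limma adjusted p = 0.846). Cyr61 was 11.52 and 11.61 in Nrf2-HET libraries and 11.96 and 11.86 in Nrf2-WT libraries. Both Nrf2-HET libraries were lower, with a difference of -0.43 in pair 1 and -0.25 in pair 2. It fell by 0.34 ± 0.05 (limma adjusted p = 8.03e-05), to 0.775 times the normalised count of Nrf2-WT cells. Another CCN gene, Wisp1 (CCN4), first described as Wnt-induced, had 8.96 and 8.88 in Nrf2-HET libraries and 9.88 and 9.96 in Nrf2-WT libraries. It fell by 1.001 ± 0.06 (limma adjusted p = 7.55e-09), to 0.361 times the count of Nrf2-WT cells, the largest fall of the 3 CCN genes tested. Nov, Wisp2 and Wisp3 were below the filter.

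Ankrd1 encodes an ankyrin repeat protein of the nucleus and the sarcomere that is strongly induced by YAP. It was the lowest member, with 8.19 and 8.08 in Nrf2-HET libraries and 8.31 and 8.43 in Nrf2-WT libraries, which is about 105 and 72 estimated reads in Nrf2-HET libraries against 119 and 129 in Nrf2-WT libraries. The groups did not overlap, but pair 2 differed by -0.35 and pair 1 by -0.12. It fell by 0.23 ± 0.08 (limma adjusted p = 0.0238), and its normalised count was 32.3% below that of Nrf2-WT cells, more than on the deposited scale because that scale compresses low genes. The call ended in the fit without the replicate block (adjusted p = 0.0584) and with no filter on low values (adjusted p = 0.0570). Over the 11 alternatives that kept the gene the adjusted p ran between 0.00184 and 0.0584. Of its relatives, Ankrd2 was at the floor in all 4 libraries and Ankrd23 was below the filter.

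Axl encodes a receptor tyrosine kinase of the TAM family and is a YAP target. On the deposited scale it was the highest of the 9 in both Nrf2-WT libraries, with Tead1 above it in replicate 2 of Nrf2-HET. It stood at 12.20 and 12.19 in Nrf2-HET libraries and 12.33 and 12.34 in Nrf2-WT libraries. Both pairs were lower in Nrf2-HET cells, with differences of -0.13 and -0.16. It fell by 0.15 ± 0.04 (limma adjusted p = 0.0174), a change smaller than the median of 0.25 among called genes. Without the mean-variance trend it was not called (adjusted p = 0.0626; range over 12 alternatives, 0.00115 to 0.0626). Its ligand gene Gas6 had a difference of 0.11 ± 0.06 and the second ligand Pros1 one of -0.13 ± 0.07, neither called. The sister receptor Tyro3 (0.01 ± 0.06) was not called either, and Mertk was below the filter.

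Set per length, the members kept a wide range of levels. In approximate normalised counts per kb of the longest coding transcript (GENCODE M21), Cyr61 came first, with 1334 and 1430 in Nrf2-HET libraries and 1845 and 1723 in Nrf2-WT libraries. Axl followed with 1043 and 1034 in Nrf2-HET libraries and 1150 and 1159 in Nrf2-WT libraries. In Nrf2-WT libraries Amotl2 came next, at 889 and 874 per kb, ahead of Yap1 at 821 and 814. In Nrf2-HET libraries this order was turned, with Amotl2 at 626 and 637 and Yap1 at 806 and 814. Wwtr1 and Tead1 lay close together, at 467 and 469 against 440 and 452 in Nrf2-HET libraries, and at 431 and 429 against 384 and 373 in Nrf2-WT libraries. No neighbours in the order overlapped within a genotype. Ctgf (257 to 277 in Nrf2-HET and 261 to 281 in Nrf2-WT libraries), Lats2 (151 to 152 and 164 to 166) and Ankrd1 (38.0 to 46.9 and 57.1 to 68.3) closed the order. Yap1 exceeded Wwtr1 by 1.73-fold in both Nrf2-HET libraries and by 1.90-fold in both Nrf2-WT libraries.

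**Figure D3:**
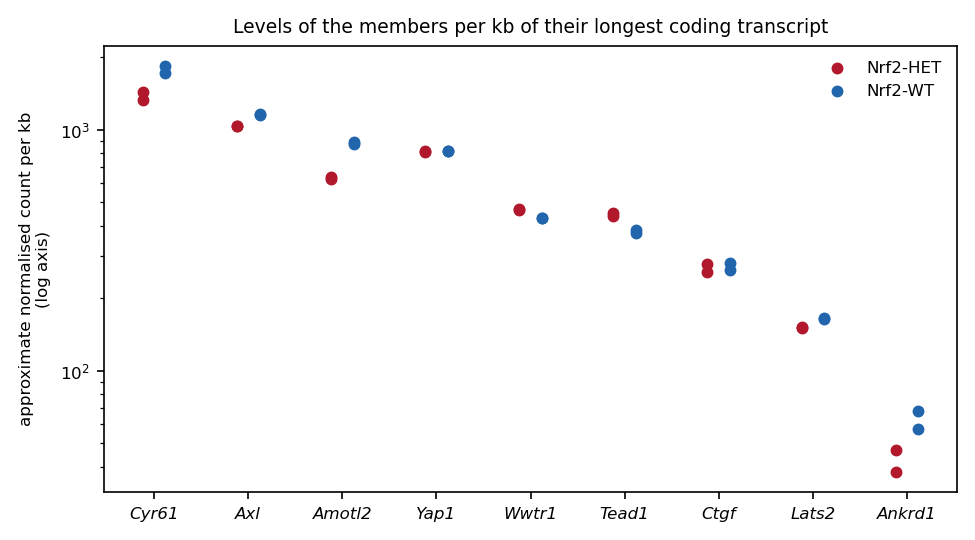
Approximate normalised count per kb of the longest coding transcript (log axis) for the 9 members, 2 Nrf2-HET and 2 Nrf2-WT libraries each, ordered by the Nrf2-WT mean. Amotl2 sits above Yap1 in Nrf2-WT libraries and below it in Nrf2-HET libraries.

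The target genes beyond the members went both ways. A list of 22 YAP and TAZ targets, which holds 6 members, had 7 lower and 6 higher of 20 tested, with a median of -0.06. That is 35.0% lower and 30.0% higher, where 18.9% of all genes tested were called lower and 21.5% higher. All 6 that rose were outside the members, and without the members 6 rose and 3 fell of 14 tested, with a median of 0.13. That is 42.9% higher and 21.4% lower. F3, tissue factor, had 11.66 and 11.92 in Nrf2-HET libraries and 11.17 and 10.90 in Nrf2-WT libraries, and rose by 0.76 ± 0.08 (limma adjusted p = 2.79e-06). Gadd45a, a stress-induced growth arrest gene, had 11.07 and 11.09 in Nrf2-HET libraries and 10.35 and 10.33 in Nrf2-WT libraries, and rose by 0.74 ± 0.05. Nt5e, the ectoenzyme CD73, rose by 0.65 ± 0.06, Fjx1, a relative of the fly four-jointed kinase, by 0.47 ± 0.07, and Dock5, an activator of the GTPase Rac, by 0.41 ± 0.05 (limma adjusted p for these 4 genes at most 3.34e-05). Of the 3 genes outside the members that fell, Arhgef17 fell most, by 0.41 ± 0.05 (limma adjusted p = 1.12e-05). Promoter windows were at hand for 10 of the 16 other genes of this list, and 2 of the 10 held GGAATG on either strand. With its members the list had 7 of 15, against 16.6% of all genes with a window.

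A wider list of 50 further reported YAP targets had 25 lower and 8 higher of 47 tested, or 53.2% and 17.0%, where 18.9% of all genes tested were called lower and 21.5% higher. Its median was -0.18, against 0.01 over all genes tested. Fstl1, a secreted glycoprotein, had 7.75 and 7.79 in Nrf2-HET libraries and 9.05 and 9.02 in Nrf2-WT libraries, and fell by 1.27 ± 0.07 (limma adjusted p = 1.39e-09). The kinase gene Sgk1 fell by 0.999 ± 0.07, Inhba, an activin subunit, by 0.92 ± 0.07, the stress gene Gadd45b by 0.83 ± 0.06 and Thbs1, thrombospondin 1, by 0.78 ± 0.06. Etv5, an ETS factor, rose by 0.91 ± 0.07 (limma adjusted p for these 6 genes at most 6.23e-08). The list mixes dividing-cell genes with others. Split after the values were seen, a group of 12, most of them cell cycle genes, had 8 lower and 0 higher, with a median of -0.24. The other 35 tested genes had 17 lower and 8 higher, with a median of -0.15. Over all 5 pathway lists, 40 of 100 tested genes were lower and 20 higher, against the same 18.9% and 21.5% of all genes tested. The lists were chosen with earlier results of these data known, so these shares are a description and not a test.

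**Figure D4:**
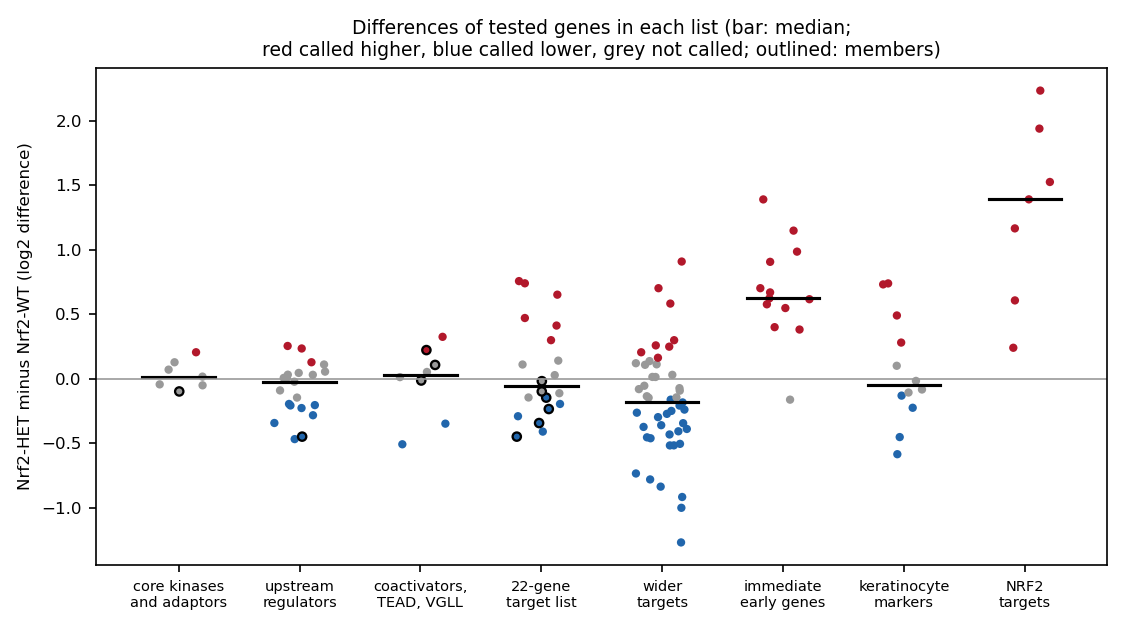
Difference of every tested gene (Nrf2-HET minus Nrf2-WT, log2) in 5 pathway lists and 3 lists set beside them, with the median as a bar and members outlined. The 22-gene target list spreads from -0.45 to 0.76, while NRF2 targets and immediate early genes lie higher, with medians of 1.39 and 0.62.

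Other gene groups moved in the same libraries. Of 13 tested immediate early genes, 12 rose and 0 fell, with a median of 0.62. That is 92.3% higher, against 21.5% of all genes tested. This class responds within minutes to stimuli or handling, and Cyr61 and Ctgf are also assigned to it. Fosl1 rose by 1.39 ± 0.11, Fos by 1.15 ± 0.08 and Myc by 0.99 ± 0.07 (limma adjusted p at most 5.02e-08). In the same libraries Cyr61 was called lower and Ctgf was not called. A link between these differences was not tested. All 12 keratinocyte markers were tested, of which 4 rose and 4 fell, or 33.3% each, against 21.5% and 18.9% of all genes tested. Krt5 and Krt14, keratins of basal cells, were among the most abundant genes, while Krt4 and Krt13, keratins of differentiating oesophageal cells, and Sox2 were low. The summed normalised counts of the 12 were 144176 and 150636 in Nrf2-HET libraries and 149335 and 143255 in Nrf2-WT libraries. Of 12 fibroblast markers, 10 were below the filter, with Lum and Dpt at the floor in all libraries, and the sums were 828 and 841 in Nrf2-HET libraries and 1019 and 1023 in Nrf2-WT libraries. Within that list Col1a1 fell by 1.29 ± 0.07 and Fbln1 rose by 0.26 ± 0.06. Smooth muscle markers, 2 of 8 tested and with Myocd at the floor, summed to 327 and 301 in Nrf2-HET libraries and 987 and 1036 in Nrf2-WT libraries, mostly Acta2, which fell by 1.23 ± 0.06. None of 7 endothelial markers passed the filter, with sums of 18.8 and 12.1 in Nrf2-HET libraries and 20.8 and 31.6 in Nrf2-WT libraries. Of 8 immune markers, 5 were at the floor, Ptprc among them, and the sums of 371 and 406 in Nrf2-HET libraries and 184 and 164 in Nrf2-WT libraries were mostly Cd68, also a lysosomal gene. In bulk RNA, fewer cells of a type and less RNA per cell cannot be told apart. The part of these groups in the member differences was not tested.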

How the data were processed

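Poly(A) RNA was sequenced from 2 Nrf2-HET and 2 Nrf2-WT libraries of cultured oesophageal cells. The authors deposited variance-stabilised log2 values, 1 per gene and library, for 24444 genes. The build mm9, DESeq2, DESeq 1.22.2, Salmon 0.11.3 and STAR 2.5.2b are named, with no role or order, per the submitters' processing notes. The strand setting and annotation were not given in the sources used here, so overlapping and antisense genes cannot be separated. Groups and replicate numbers come from the sample titles, matched to the column names. The pair sums of each gene agree within 1.31e-13, so the values had been centred by replicate number before deposit, which no label mentions.

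The 10857 genes that exceeded the table's minimum by 1 or more in 2 or more libraries were tested with limma 3.58.1 in R 4.3.3, by lmFit with genotype and a replicate block, eBayes with a mean-variance trend and a two-sided moderated test. The block leaves 1 residual degree of freedom per gene, to which the fit adds 14.6 prior ones. The numbers pair the libraries because of the centring; the deviations of same-numbered libraries correlate at -1 for the same reason. Approximate normalised counts were obtained by inverting the closed form of the variance stabilisation from the floor of 6.98; values under the floor were set to 0. They come from centred values, as do estimated reads, which use what 1 read is worth in genes seen in a single library. They also carry small corrections for each gene that cannot be undone here. The fit was tested on simulated data with known changes, centred by pair like the real values, where unchanged genes got low p-values more often without the block than with it.

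The members and gene lists were chosen with earlier results of these data known. All 9 members are named. From each other list at most 6 called genes with the largest absolute difference are named, and in the kinase, coactivator, CCN, TAM and ankyrin repeat lists any gene may be. No list was tested as a set. Genes most alike in pattern to a member are not reported here. Alternatives were the fit without the block, median centring, quantile normalization, no filter and a filter at 2 above the lowest value, robust empirical Bayes, no trend, log2 of the approximate count + 1, and leaving out each library.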

Additional observations from a re-analysis of the deposited data

How the results depend on the processing

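Cyr61, Amotl2 and Tead1 kept their direction in all 12 alternatives and were called in every one that fitted all 4 libraries. Their differences lay between -0.39 and -0.30 for Cyr61, between -0.48 and -0.44 for Amotl2 and between 0.20 and 0.24 for Tead1. Yap1 and Ctgf were called in none. Without a library Ctgf ran between -0.057 and 0.022, and it turned to 0.022 without replicate 1 of either genotype. The centring makes a difference the same whichever genotype loses a given replicate number. The fits that leave out a library are therefore not all separate checks. Ankrd1 left the test under the stricter filter, and on log2 of the approximate count + 1 it fell by 0.56. Without the replicate block 6004 genes were called instead of 4388, and 3 core kinases and adaptors instead of 1; the other counts stayed within 1.5 times. Pairing the libraries across numbers leaves no residual in values centred by number, so no crossed fit could be had. Leaving out a library, in fits without the block, gave 5008 to 5463 genes called, 5 to 6 members, 69 to 72 genes of the pathway lists, 1 to 2 of the core kinases, where the lone library is assumed to vary like the others; 2 core kinases, Stk4 and Mob1a, were called without replicate 1 of either genotype. The depth limits Ankrd1, with 72 to 129 estimated reads, more than the other members, with 608 or more.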
